A study of Mus musculus with 72 samples.

Results

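The genes described here encode proteins of the nuclear lamina and of the inner nuclear envelope: Lmna, Lmnb1, Lmnb2, Lbr, Emd, Tmpo, Banf1, Sun1, Sun2 and Syne2. They were chosen by name and found by matching the Ensembl transcript identifiers of the count files to gene symbols, and for each gene the annotated transcript with the most counts summed over the 72 libraries was used. These 10 genes are 10 of 45321 matched genes, and each of the 10 was among the 18273 genes that passed the filter on low counts. Polyadenylated RNA came from embryonic stem cells of the mouse (mESCs) with and without Nup133, a subunit of the Y-complex, which is a scaffold of the nuclear pore. The comparison addresses how the transcriptome differs between the genotypes in the pluripotent state and during differentiation towards neuroectoderm.

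Controls were HM1 (Nup133+/+, 40 Chr, XY), grown as 2 replicates, and 1A4, a line derived from a blastocyst (Nup133+/+, Sox1gfp/+, 40 Chr, XY). Knockouts were lines 14 (Nup133-/-, 40 Chr, XY) and 19 (Nup133-/-, likely 40 Chr, XY), which are CRISPR/Cas9-edited derivatives of HM1, and line 319, which was derived from a blastocyst, is Nup133merm/merm with Sox1gfp/+ and is labelled 42 Chr and XX with +8 and +12. Day 0 cells had grown in serum with leukemia inhibitory factor (LIF) on mitomycin-treated DR4 mouse embryonic fibroblasts, which were then removed by plating. Day 2 cells had been kept in N2B27 medium on gelatin, and day 3 cells had also received 1 µM all-trans retinoic acid for 24 h. Each group of genotype and day holds 3 samples, each sequenced as 4 technical libraries whose counts were added. A knockout sample is 1 cell line, so the knockout group samples 3 lines once per day. The 2 HM1 replicates share a cell line, and the p-values measure the spread between these samples.

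The nuclear lamina is a meshwork of intermediate filament proteins under the inner nuclear membrane. B-type lamins are made in nearly all cells, whereas A-type lamins are low in early embryonic cells and increase as tissues mature and stiffen. Membrane proteins such as the lamin B receptor, emerin and the LAP2 proteins tie chromatin to the lamina, often through the small DNA-bridging protein BAF (Banf1). SUN proteins of the inner membrane bind nesprins of the outer membrane in LINC complexes, which join the lamina to the cytoskeleton. SUN1 is also known to associate with nuclear pores.

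The genes lie on GRCm38, which is the same assembly as the mm10 build named in the submitters' processing notes. Lmna-201 spans 12 exons at chr3:88481148-88503335 (-), Lmnb2-201 spans 12 exons at chr10:80901203-80918245 (-), Sun1-201 spans 23 exons at chr5:139200637-139249840 (+) and Syne2-201 spans 116 exons at chr12:75818318-76110900 (+). These 4 genes were the ones of the 10 that changed from day 0 to day 2 in controls (adjusted p below 0.05), so the sequence upstream of their start sites is shown. Each run is the longest stretch, within the 250 bases upstream of the start, that holds no annotated exon, from RefSeq on GRCm38.p6, written 5′ to 3′ on the gene's strand. Capitals mark 2 motifs on either strand, the CCAAT box bound by NF-Y and the GC box GGGCGG bound by Sp1.
Lmna, chr3:88503387-88503602: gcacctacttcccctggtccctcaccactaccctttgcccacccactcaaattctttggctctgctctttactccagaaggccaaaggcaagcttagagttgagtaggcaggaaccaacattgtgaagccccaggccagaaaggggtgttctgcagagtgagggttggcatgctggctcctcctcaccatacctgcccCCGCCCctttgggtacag
Lmnb2, chr10:80918246-80918495: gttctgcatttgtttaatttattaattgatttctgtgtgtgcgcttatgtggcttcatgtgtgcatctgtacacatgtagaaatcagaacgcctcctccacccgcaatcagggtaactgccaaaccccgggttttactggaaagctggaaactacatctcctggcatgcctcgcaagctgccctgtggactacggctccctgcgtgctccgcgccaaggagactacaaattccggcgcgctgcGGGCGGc
Sun1, chr5:139200387-139200636: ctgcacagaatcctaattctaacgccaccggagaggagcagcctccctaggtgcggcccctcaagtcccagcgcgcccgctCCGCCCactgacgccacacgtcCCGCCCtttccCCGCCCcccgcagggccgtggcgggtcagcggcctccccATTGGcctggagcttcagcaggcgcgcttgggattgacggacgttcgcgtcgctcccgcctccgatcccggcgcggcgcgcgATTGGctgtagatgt
Syne2, chr12:75818189-75818317: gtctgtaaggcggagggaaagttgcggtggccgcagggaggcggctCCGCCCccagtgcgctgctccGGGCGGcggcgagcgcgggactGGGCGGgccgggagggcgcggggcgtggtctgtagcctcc
Guanine and cytosine made up 56.5% of the Lmna run, 52.8% of the Lmnb2 run, 70.0% of the Sun1 run and 77.5% of the Syne2 run. The median over 32851 upstream windows of 250 bases was 52.4%. The Lmna and Syne2 runs are shorter, at 216 and 129 bases, and the whole windows of 250 bases held 56.4% in Lmna and 70.0% in Syne2. A GC box was matched 1 time in Lmna and 1 time in Lmnb2, 3 times in Sun1 and 3 times in Syne2, and CCAAT was matched 2 times, as its reverse complement ATTGG, in Sun1 and in none of the other runs. Of all windows of 250 bases, 32.7% held a GC box and 33.8% held CCAAT. The nuclear receptor motif AGGTCA, present in 14.0% of windows, and TTTGAA, the cell cycle homology region, present in 16.0%, had no match on either strand of the 4 runs. The genes with opposite courses, Lmna and Syne2, both carried GC boxes, and a match says nothing about binding.

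Before the genes are described, 1 library needs naming. The library of line 19 at day 2 had the fewest gene counts (16.5 M, against up to 54.4 M elsewhere) and stood apart along transcripts. Lbr-205, an annotated transcript of the 5′ end of Lbr, held 6.48% of the counts of the full-length Lbr-201 in that library and 13.4% to 18.4% in the other 17 samples. Lbr-203, which covers the 3′ end, held 84.1% there and 56.3% to 64.8% elsewhere. The 5′ transcript Lmna-206 held 5.50% of Lmna-201 there against 10.9% to 21.8%, and Sun1-217 held 4.46% of Sun1-201 against 8.54% to 12.5%. Relative to lines 14 and 319 at day 2, the median log2 difference was 0.77 over 4161 genes with transcripts under 1500 bases, -0.03 over 10960 genes between 1500 and 5000 bases and -0.80 over 3152 genes longer than 5000 bases. Banf1, the shortest of the 10 genes at 1261 bases, was highest in that library, and Syne2, the longest at 21690 bases, was at its lowest level of days 2 and 3 there. Tests of the 10 genes whose call rests on the library are therefore given with and without it. Values that moved in direction or size without a call are given both ways for some genes and not for all.

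Nup133 itself was low in every knockout sample. At day 0 it stood at 237 and 245 counts per 1 M (CPM, scaled by the trimmed mean of M-values) in HM1 and 323 in 1A4, and at 27.9, 37.1 and 23.9 in lines 14, 19 and 319. It was 9.13-fold lower in the knockouts at day 0 (log2 fold change -3.19, SE 0.26, edgeR quasi-likelihood test with Benjamini-Hochberg adjusted p = 2.13e-05), and on the later days the log2 fold changes were -3.28 and -3.40. Pluripotency markers summed to 4155 to 6115 CPM at day 0 and to 284 to 637 CPM at day 3. Sox1, a marker of early neuroectoderm and altered in the Sox1gfp/+ lines 1A4 and 319, was at 0.47 to 6.91 CPM at day 0 and at 17.96 to 101 CPM at day 3. A list of 8 neural markers summed to 149 to 252.5 CPM at day 0 and to 296 to 950 at day 3. Tubb3, on that list, was called lower in controls from day 2 to day 3, and 4 others were called higher. Primitive endoderm markers, a list of 10, summed to 192 to 295 CPM at day 0 and to 312 to 699 at day 3.

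**Figure D1:**
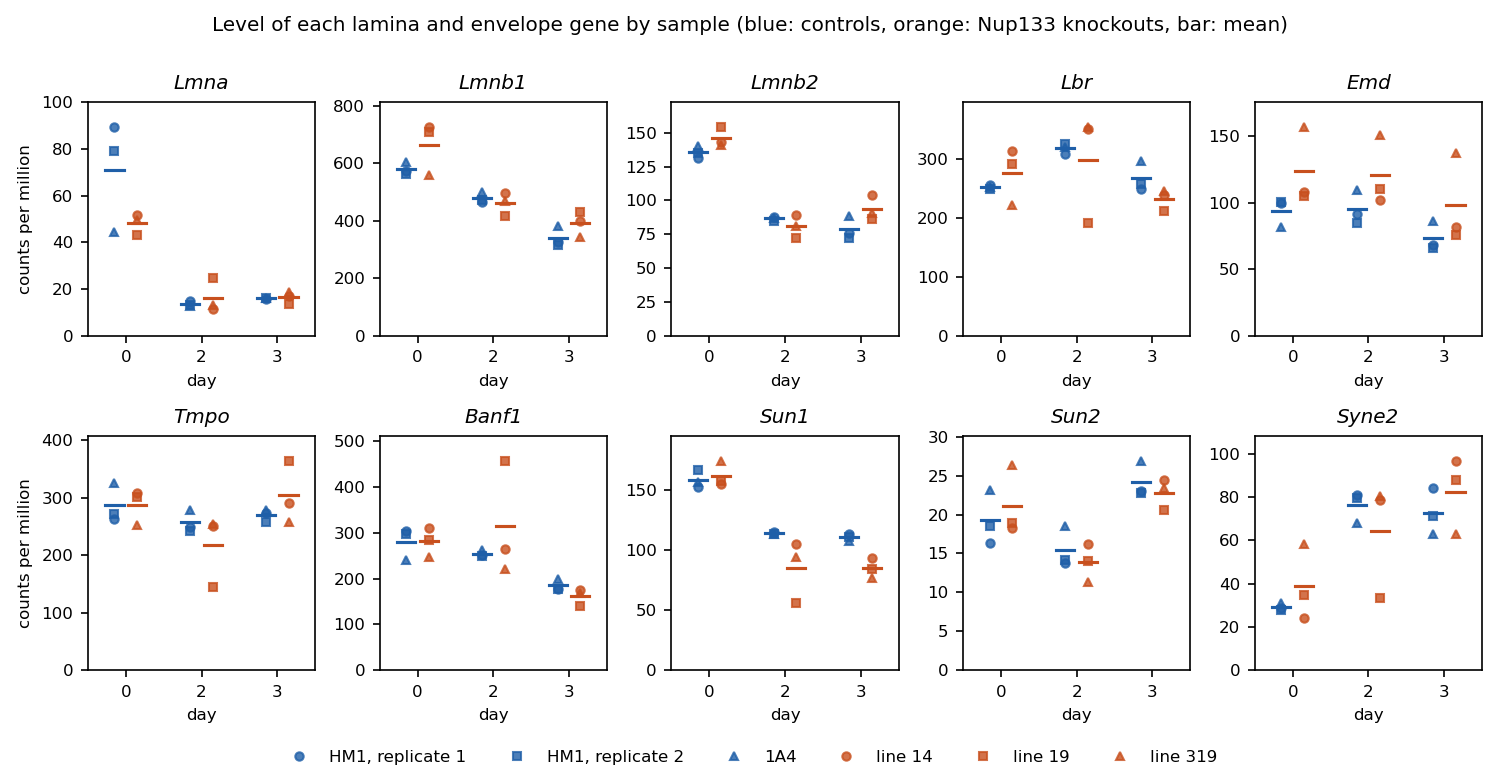
Level of the 10 genes in each of the 18 samples, in CPM on linear axes that start at 0, by day. Blue points are controls, orange points are knockouts, the shape gives the line and the short bar is the mean of 3 samples. Lmna drops from 43.1 to 89.6 CPM at day 0 to 11.3 to 24.7 CPM at day 2, while Syne2 goes from 24.3 to 58.1 CPM at day 0 to 62.9 to 96.8 CPM at days 2 and 3 in all samples but line 19 at day 2, with 33.3.

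Between day 0 and day 2, Lmna fell 5.10-fold in the controls and 2.99-fold in the knockouts, and Lmnb2 and Sun1 fell in both genotypes. Syne2 rose 2.62-fold in the controls. In the controls, 4 of the 10 genes passed the test (1 higher, 3 lower), where 35.2% of all genes tested did, 19.7% higher and 15.5% lower. In the knockouts, 5 of 10 passed, all lower, where 35.9% of all genes did, 20.8% higher and 15.1% lower. Without line 19 at day 2, 7 of 10 passed in knockouts (Lbr and Syne2 higher, 5 lower), where 39.0% of all genes did, and 5 of 10 in controls (2 higher, 3 lower), where 46.2% did. The 3 samples of the 2 days did not overlap for 6 of 10 genes in controls and 5 of 10 in knockouts, where 61.9% and 34.9% of all genes did not. Over the 10 genes the median log2 change was -0.22 in controls and -0.47 in knockouts, beside 0.01 and 0.06 over all genes tested. Without line 19 at day 2 these medians were -0.20 and -0.32, beside 0.027 and -0.006 over all genes.

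Lmna encodes lamins A and C. At day 0 its level was 89.6 and 79.0 CPM in the HM1 replicates and 44.4 in 1A4, and 51.8, 43.1 and 49.6 in lines 14, 19 and 319. At day 2 it was 15.01, 13.4 and 12.9 CPM in the controls and 11.3, 24.7 and 13.3 in the knockouts. Every day 0 sample lay above every day 2 sample. The log2 fold change was -2.35 (SE 0.27, adjusted p = 1.6e-05) in controls and -1.58 (SE 0.27, adjusted p = 0.00033) in knockouts. Without line 19 at day 2 the knockout value was -1.95 (SE 0.23, adjusted p = 1.75e-05), and both calls held under each of the alternatives. At day 3 the level was 15.7, 16.3 and 16.2 CPM in controls and 17.2, 13.7 and 18.6 in knockouts. The day 3 controls lay just above the day 2 controls, a change of 0.23 on the log2 scale that did not pass the test (95% interval -0.33 to 0.78, adjusted p = 0.59).

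Feeder fibroblasts make much lamin A, so fibroblast markers were read beside Lmna. Of 15 listed markers 14 passed the count filter. The summed level of the list at day 0 was 523 and 516 CPM in the HM1 replicates, the samples with the most Lmna, 239.7 in 1A4 and 189 to 309 in the knockouts. At day 2 the sum was 235 to 308 CPM in controls and 142 to 189 in knockouts. At day 3 it was 382 to 491 CPM in controls and 232 to 367 in knockouts. From day 2 to day 3 in controls, Col1a1, Col1a2, Col5a1 and Pdgfrb were called higher and Thy1 lower, where 12.5% and 8.92% of all genes were. The cells were then on gelatin, so the sum at day 3 is not a measure of feeders alone. From day 0 to day 2, 6 of the 14 were called lower and 2 higher (Thy1 and Dcn) in controls, with the same counts in knockouts. Of all genes tested, 15.5% were called lower and 19.7% higher in controls, and 15.1% and 20.8% in knockouts. Single markers differed widely in level at day 0. Col1a1 was at 28.1 to 60.5 CPM, Col6a1 at 16.7 to 80.6 CPM, Dcn at 0.12 to 0.51 CPM and Lum at 0.02 to 0.12 CPM. Lum was at 0 in the lowest knockout sample of day 2 and of day 3. In bulk RNA, fewer cells of a type and less RNA per cell cannot be told apart, and the part of residual feeders in the day 0 level of Lmna was not tested. In 1A4 and line 319, whose marker sums at day 0 were 239.7 and 239 CPM, Lmna went from 44.4 and 49.6 CPM to 12.9 and 13.3.

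**Figure D2:**
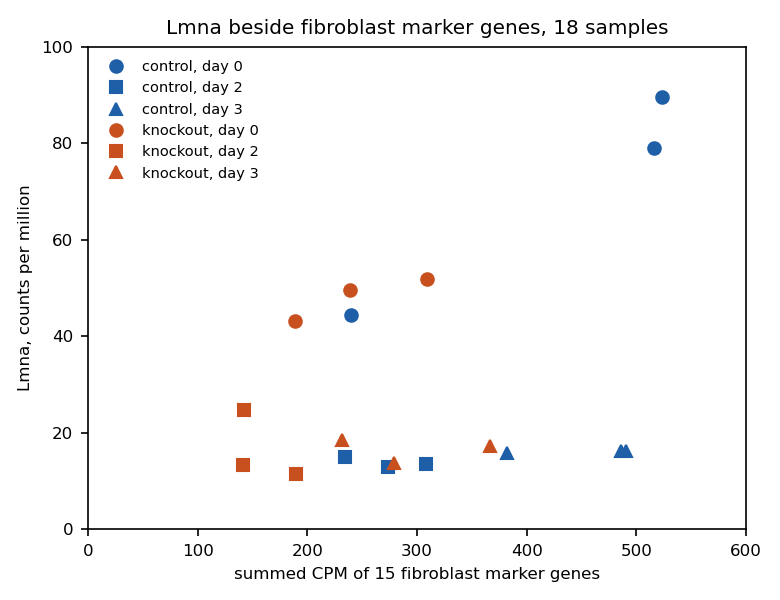
Lmna in CPM (y axis) against the summed CPM of 15 fibroblast marker genes (x axis) in each of the 18 samples. Circles are day 0, squares day 2 and triangles day 3, blue for controls and orange for knockouts. The 2 HM1 samples of day 0 stand highest on both axes, and the day 3 controls sit at 382 to 491 on the x axis with Lmna at 15.7 to 16.3 CPM.

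Per transcript length, both B-type lamin genes stood above Lmna in day 0 controls, with means of 204 and 38.4 against 22.5 CPM per kilobase. Lmnb1 (chr18:56707813-56753424, +, 11 exons) was at 573, 564 and 603 CPM in day 0 controls and at 727, 709 and 558 in day 0 knockouts. At day 2 it was 466, 471 and 501 CPM in controls and 496, 417 and 470.2 in knockouts, and the groups of day 0 and day 2 did not overlap in either genotype. The change passed the test in knockouts (log2 fold change -0.53, SE 0.14, adjusted p = 0.0083, or -0.44 and adjusted p = 0.0136 without line 19 at day 2) and not in controls (-0.28, 95% interval -0.57 to 0.02, adjusted p = 0.14). Leaving out line 14 throughout gave an adjusted p of 0.057 in knockouts.

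Lmnb2, the other B-type lamin gene, was at 131, 135 and 140.1 CPM in day 0 controls and at 143, 154 and 141 in day 0 knockouts. At day 2 it was 88.0, 84.9 and 87.3 CPM in controls and 89.3, 71.9 and 81.3 in knockouts, again with no overlap between days. It fell by 0.64 on the log2 scale in controls (SE 0.13, adjusted p = 0.00103) and by 0.85 in knockouts (SE 0.13, adjusted p = 9.99e-05), or by 0.77 in knockouts without line 19 at day 2 (SE 0.11, adjusted p = 8.09e-05). This fall passed the test in both genotypes under every one of the 17 alternative settings that gave it a value.

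The lamin B receptor gene Lbr (chr1:181815335-181842379, -, 14 exons), whose product binds B-type lamins and heterochromatin and is also a sterol reductase, was higher in each control at day 2 than at day 0. It was at 256, 249 and 252 CPM in day 0 controls and at 309, 326 and 319.9 at day 2. The knockouts had 313, 292 and 222 CPM at day 0 and 349.9, 191 and 355 at day 2, with 191 in line 19. In the fit over 18 samples the change did not pass the test in controls (log2 fold change 0.34, 95% interval -0.08 to 0.75, adjusted p = 0.20) or in knockouts (0.11, 95% interval -0.30 to 0.52, adjusted p = 0.69). Without line 19 at day 2, it rose in controls (0.35, SE 0.11, adjusted p = 0.0188) and in knockouts (0.36, SE 0.13, adjusted p = 0.0311).

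Emd, Tmpo and Banf1, also genes of chromatin tethering, did not pass the test over this step in the fit over 18 samples. Emd (chrX:74254687-74257887, +, 6 exons) encodes emerin, a LEM-domain protein. Its level was 99.98, 100.3 and 82.0 CPM in day 0 controls and 91.6, 85.1 and 109 at day 2. Tmpo (chr10:91147571-91171582, -, 9 exons) encodes the LAP2 proteins and stood at 263, 271 and 326 CPM in day 0 controls and at 249, 243 and 279 at day 2. In knockouts Tmpo was at 308, 301 and 252 CPM at day 0 and at 250.5, 145 and 255 at day 2 (log2 fold change -0.41, 95% interval -0.82 to 0.00, adjusted p = 0.11), the lowest again in line 19. Without line 19 at day 2 the knockout value of Tmpo was -0.17 (SE 0.14, adjusted p = 0.36), and without line 319, with that library kept, it was -0.61 (adjusted p = 0.0337). Banf1 (chr19:5364638-5367168, -, 3 exons), which encodes BAF, was at 304, 298 and 241 CPM in day 0 controls and 252, 249 and 262 at day 2. The knockout log2 fold change of Banf1 was 0.15 (SE 0.20), or -0.19 (SE 0.13) without line 19 at day 2, and neither value passed the test. In all 3 genes the day 0 and day 2 controls overlapped.

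The LINC complex genes moved in different directions. Sun1 was at 152, 166 and 156 CPM in day 0 controls and at 114, 113 and 113 at day 2, and in knockouts at 154, 157 and 174 CPM and then 105, 55.8 and 94.3. It fell by 0.48 on the log2 scale in controls (SE 0.18, adjusted p = 0.0448) and by 0.92 in knockouts (SE 0.18, adjusted p = 0.00087), or by 0.46 (adjusted p = 0.00064) and 0.69 (adjusted p = 0.000102) without line 19 at day 2. The control call was lost under 7 of the alternatives, and leaving out any 1 of the 3 controls gave adjusted p-values from 0.169 to 0.255.

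Sun2 (chr15:79724070-79742456, -, 17 exons), whose product pairs with nesprins as that of Sun1 does, is represented by Sun2-208, a transcript annotated with a retained intron. It was at 16.3, 18.6 and 23.1 CPM in day 0 controls and 13.8, 14.2 and 18.5 at day 2. In knockouts it was at 18.3, 18.9 and 26.3 CPM and then at 16.2, 14.0 and 11.4, with no overlap. It fell by 0.58 on the log2 scale in knockouts (SE 0.18, adjusted p = 0.0207; without line 19 at day 2 by 0.60, adjusted p = 0.0199), a call that was lost without line 319 (-0.29, adjusted p = 0.157) and when either HM1 replicate was left out (adjusted p = 0.0519 and 0.0581). The control value was -0.32 (95% interval -0.70 to 0.06, adjusted p = 0.18).

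Syne2 encodes nesprin-2, the giant outer membrane partner of the SUN proteins. It was at 28.8, 27.8 and 31.0 CPM in day 0 controls and at 81.2, 79.9 and 68.0 at day 2, with a wide gap between the days (log2 fold change 1.39, SE 0.32, adjusted p = 0.0031). Without HM1 replicate 1 or 2 the control value was 1.34 or 1.32, with adjusted p = 0.0501 or 0.0538. In knockouts it was at 24.3, 34.9 and 58.1 CPM at day 0 and at 78.8, 33.3 and 80.7 at day 2. The knockout change did not pass the test (0.73, 95% interval 0.07 to 1.39, adjusted p = 0.081), and without line 19 at day 2 Syne2 rose (1.03, SE 0.27, adjusted p = 0.0069). It also passed without line 319 (0.94, adjusted p = 0.0276).

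**Figure D3:**
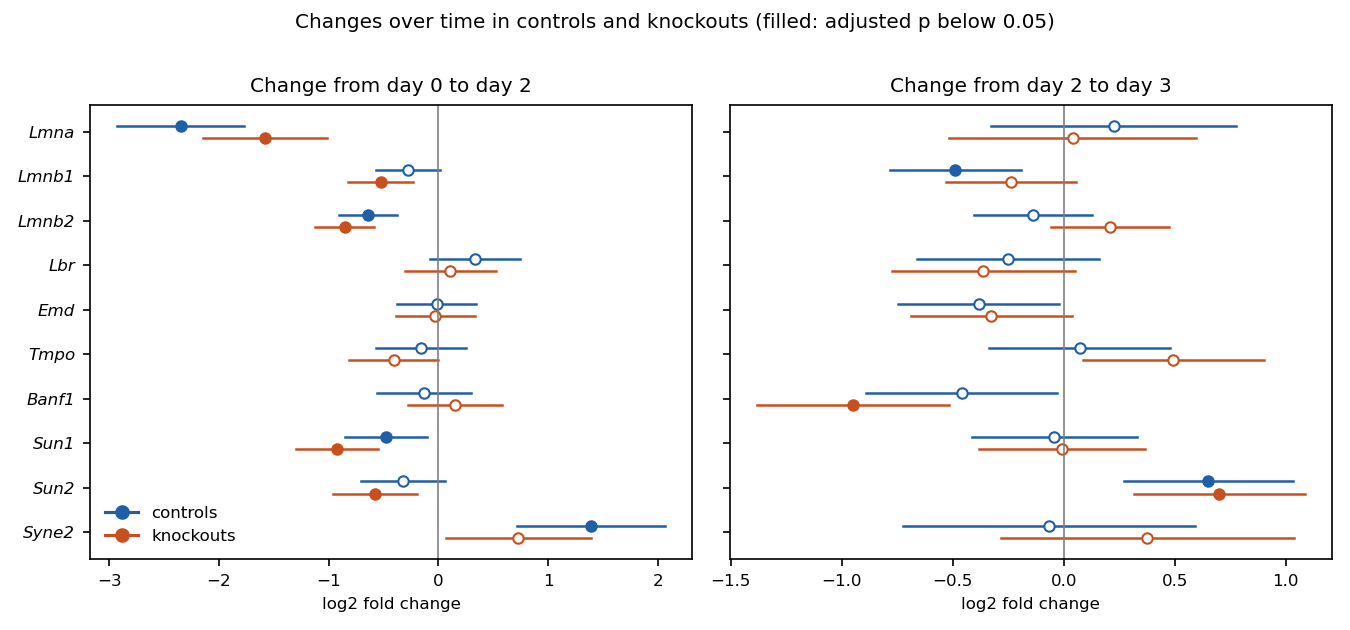
Log2 fold change of each gene from day 0 to day 2 (left) and from day 2 to day 3 (right) in controls (blue) and knockouts (orange), with 95% intervals. Filled points have an adjusted p below 0.05. From day 0 to day 2 Lmna lies at -2.35 and -1.58 and Syne2 at 1.39 and 0.73.

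From day 2 to day 3, the day with retinoic acid, Sun2 rose in both genotypes, Lmnb1 fell in controls and Banf1 fell in knockouts. In controls 2 of 10 genes passed the test (1 higher, 1 lower), where 21.4% of all genes tested did, 12.5% higher and 8.92% lower. In knockouts 2 of 10 passed (1 higher, 1 lower), where 33.6% of all genes did, 17.6% higher and 16.0% lower. The days did not overlap for 6 of 10 genes in controls and 3 of 10 in knockouts, where 57.4% and 34.8% of all genes did not. Without line 19 at day 2, 3 of 10 passed in each genotype, where 32.2% of all genes did in controls and 32.0% in knockouts.

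Sun2 was at 22.99, 22.7 and 26.9 CPM in day 3 controls and at 24.4, 20.5 and 23.4 in day 3 knockouts, above each day 2 sample of its own genotype. It rose by 0.65 on the log2 scale in controls (SE 0.18, adjusted p = 0.016) and by 0.70 in knockouts (SE 0.18, adjusted p = 0.0081). The control call was lost without any 1 of the 3 controls (adjusted p from 0.0608 to 0.178) and without the count filter (0.0534), and the knockout call held under each alternative. Sun1 was at 113, 111 and 107 CPM in controls and at 93.0, 84.4 and 76.4 in knockouts.

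Lmnb1 reached its lowest level at day 3, with 326, 315 and 383 CPM in controls and 399, 432 and 344 in knockouts. It fell by 0.49 on the log2 scale in controls (SE 0.14, adjusted p = 0.0195), a call that was lost without HM1 replicate 1 (adjusted p = 0.194) or 2 (0.229) and without the count filter (0.057). The knockout value was -0.24 (95% interval -0.53 to 0.06, adjusted p = 0.20), or -0.39 (adjusted p = 0.0487) without line 19. Lmnb2 lay at 75.8, 72.1 and 88.6 CPM in controls and at 104, 86.2 and 90.5 in knockouts. Mitosis and S-phase genes, a list of 15, summed to 6420 to 6523 CPM in controls at day 0, to 5598 to 5777 at day 2 and to 4775 to 5056 at day 3, and their part in the course of Lmnb1 was not tested.

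Banf1 was at 178, 178 and 199.6 CPM in day 3 controls and at 175, 139.7 and 168 in day 3 knockouts, below the day 2 samples of both genotypes, which held 249 to 262 CPM in controls and 265, 457 and 221 in lines 14, 19 and 319. It fell by 0.95 on the log2 scale in knockouts (SE 0.20, adjusted p = 0.0026), a value that shrank to 0.61 in size (log2 fold change -0.61, adjusted p = 0.0021) without line 19 at day 2. In controls the value was -0.46 (95% interval -0.89 to -0.03, adjusted p = 0.12) over 18 samples, and Banf1 fell there as well (-0.46, adjusted p = 0.0063) without line 19 at day 2. Exons of Banf1-201 share 428 bases with Eif1ad on the opposite strand, those of Lbr 440 with Dnah14, those of Tmpo 244 with Gm26765 and those of Sun2 136 with Gm16575, and the strand setting of the counting is not given in the sources used here.

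Lbr was at 249, 257 and 297 CPM in day 3 controls and at 238, 212 and 245 in day 3 knockouts. In knockouts its log2 fold change was -0.36 (95% interval -0.78 to 0.05, adjusted p = 0.16), and without line 19 at day 2 Lbr fell (-0.61, SE 0.12, adjusted p = 0.0019). In controls the value was -0.25 (95% interval -0.66 to 0.16, adjusted p = 0.40). Emd was at 68.2, 65.6 and 86.1 CPM in controls and at 81.5, 75.5 and 137 in knockouts, with log2 fold changes of -0.38 (95% interval -0.75 to -0.02, adjusted p = 0.13) and -0.33 (95% interval -0.69 to 0.04, adjusted p = 0.15). Tmpo was at 273, 258 and 278 CPM in controls and at 290.4, 364 and 258 in knockouts (knockout log2 fold change 0.49, 95% interval 0.09 to 0.90, adjusted p = 0.059). This value was 0.26 (SE 0.15, adjusted p = 0.19) without line 19 at day 2. Without line 319, Tmpo passed the test in knockouts (0.72, adjusted p = 0.0166), as did Emd (-0.43, adjusted p = 0.0499). Syne2 overlapped its day 2 range in controls, with 84.2, 71.5 and 62.9 CPM, and was at 96.8, 88.0 and 63.2 in knockouts. The knockout change of Syne2 was 0.377 (adjusted p = 0.365), or 0.051 (adjusted p = 0.906) without line 19 at day 2.

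Between genotypes, none of the 10 genes passed the edgeR test on any day. At an unadjusted p under 0.05 there were 0 at day 0, 1 at day 2 (Sun1) and 2 at day 3 (Emd and Sun1). Of all 18273 genes tested, 1946, 3735 and 4004 had such an unadjusted p on these days. DESeq2 called 0 of the 10 on each day. The share of all genes tested that passed after adjustment was 0.854%, 1.6% and 5.19%. For days 0, 2 and 3 in turn, the 10 genes had median log2 differences of 0.12, -0.10 and 0.11, beside 0.01, 0.02 and 0.02 over all genes. Without line 19 at day 2 the median of day 2 was -0.025, beside -0.001 over all genes. The bounds of the 95% intervals of the 10 genes reached -1.09 and 1.07 on day 0, -0.92 and 0.79 on day 2, and -0.76 and 0.84 on day 3. Groups of knockouts and controls did not overlap for 2 of 10 genes at day 0 (Emd and Lmnb2, higher), 1 at day 2 (Sun1, lower) and 3 at day 3 (Banf1, Lbr and Sun1, lower), where 17.8%, 21.7% and 35.2% of all genes did not overlap.

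Sun1 at day 3 was the one genotype difference among the 10 genes that passed the test under an alternative setting. It was at 113, 111 and 107 CPM in controls and at 93.0, 84.4 and 76.4 in knockouts, and each line lay below its own control, by 0.26, 0.41 and 0.49 on the log2 scale. In the fit over 18 samples the log2 difference was -0.38 (SE 0.18, 95% interval -0.76 to -0.01, adjusted p = 0.22). Sun1 was lower in knockouts when line 19 at day 2 was left out of the fit (-0.39, SE 0.09, adjusted p = 0.0103), where 15.8% of all genes passed and 7.91% were lower. It also passed when day 3 was fitted alone (-0.40, adjusted p = 0.0311) and without line 19 altogether (-0.38, adjusted p = 0.0487). Over the alternatives the value ranged from -0.47 to -0.32 and the adjusted p from 0.0103 to 0.512. The summed fibroblast markers at day 3 were at 232 to 367 CPM in knockouts and 382 to 491 in controls, and 3 of 14 genes were called lower (Postn, Acta2 and Tagln). Other genes of the list lay the other way without a call, with Col3a1 at 22.5 to 40.3 CPM in knockouts against 12.7 to 16.1 and Col6a1 at 12.9 to 21.2 against 6.82 to 10.4. Their part in the Sun1 difference was not tested.

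At day 2 the Sun1 difference was -0.42 (SE 0.18, adjusted p = 0.20), with 105, 55.8 and 94.3 CPM in knockouts against 113 to 114 in controls. Without line 19 at day 2 it was -0.18 (SE 0.10, adjusted p = 0.35), so that the value at day 2 shrank by more than 1.5 times. At day 0 the groups overlapped, with 154, 157 and 174 CPM against 152, 166 and 156. The change of the genotype difference from day 0 to day 2 was -0.45 (95% interval -0.97 to 0.08, adjusted p = 0.75).

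Emd was higher in each knockout line than in its own control on each of the 3 days, in 9 of 9 line and day pairs. Line 319 was the highest sample of its day, with 157, 151 and 137 CPM at days 0, 2 and 3, against 82.0, 109 and 86.1 in 1A4. The log2 differences of line 319 from 1A4 were 0.94, 0.47 and 0.67. Emd is X-linked, and line 319 is labelled XX where 1A4 is XY. The median log2 difference of 672 X-linked genes between the same samples was 0.70, 0.57 and 0.49, beside 0.00, -0.02 and -0.01 for autosomes other than 8 and 12. In the XY lines 14 and 19, Emd differed from HM1 by 0.07 to 0.32. The log2 difference between the genotypes was 0.34 (SE 0.17, adjusted p = 0.51) at day 0, 0.33 (SE 0.17, adjusted p = 0.28) at day 2 and 0.39 (SE 0.17, adjusted p = 0.19) at day 3. Over the alternatives these values ran from 0.07 to 0.45, from 0.20 to 0.39 and from 0.15 to 0.49, and the lowest adjusted p was 0.0794.

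Lmna at day 0 differed by -0.54 (SE 0.26, 95% interval -1.09 to 0.01, adjusted p = 0.49), and the lines did not share the direction. Lines 14 and 19 lay 0.70 and 0.96 below the HM1 mean on the log2 scale, and line 319 lay 0.16 above 1A4. The 2 HM1 samples also had the highest fibroblast marker sums of day 0, as given above, and their part in the difference was not tested. The change of the Lmna difference from day 0 to day 2 was 0.77 (95% interval -0.01 to 1.55, adjusted p = 0.71), or 0.39 (95% interval -0.22 to 1.01, adjusted p = 0.81) without line 19 at day 2. None of the 10 genes passed the test of a changing genotype difference between any 2 days by edgeR or DESeq2 over 18 samples. Of all genes 0.0219%, 0.0383% and 0.427% passed from day 0 to 2, 2 to 3 and 0 to 3. None of the 10 had an unadjusted p under 0.05 by edgeR, where 1308, 1626 and 1986 of all 18273 genes did. The Sun1 difference changed by -0.43 from day 0 to day 3 without line 19 at day 2 (SE 0.13, adjusted p = 0.0923).

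Lmnb2 was higher than the own control in each line at day 3, by 0.49, 0.22 and 0.03 in lines 14, 19 and 319 (log2 difference between genotypes 0.25, SE 0.13, adjusted p = 0.26). Lmnb1 was 0.36 and 0.32 higher in lines 14 and 19 at day 0 and 0.32 and 0.43 higher at day 3, and lower in line 319 on each day, by 0.11, 0.09 and 0.16. Syne2 lies on chromosome 12, of which line 319 is labelled to carry an extra copy. At day 0 it was 0.91 higher in line 319 than in 1A4, at day 2 0.25 and at day 3 0.01, while the median of 620 genes of that chromosome was 0.43, 0.49 and 0.51 higher. On day 0 the remaining log2 differences between genotypes lay between 0.00 (Banf1) and 0.41 (Syne2). On day 2 they lay between -0.26 (Syne2) and 0.29 (Banf1), and without line 19 at day 2 both turned, to 0.06 for Syne2 (SE 0.27) and -0.06 for Banf1 (SE 0.13). Lmna also turned without it, from 0.234 to -0.149, as did Lbr, from -0.095 to 0.147, and Lmnb1, from -0.055 to 0.016. On day 3 the remaining differences lay between -0.21 (Lbr) and 0.20 (Lmnb1).

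**Figure D4:**
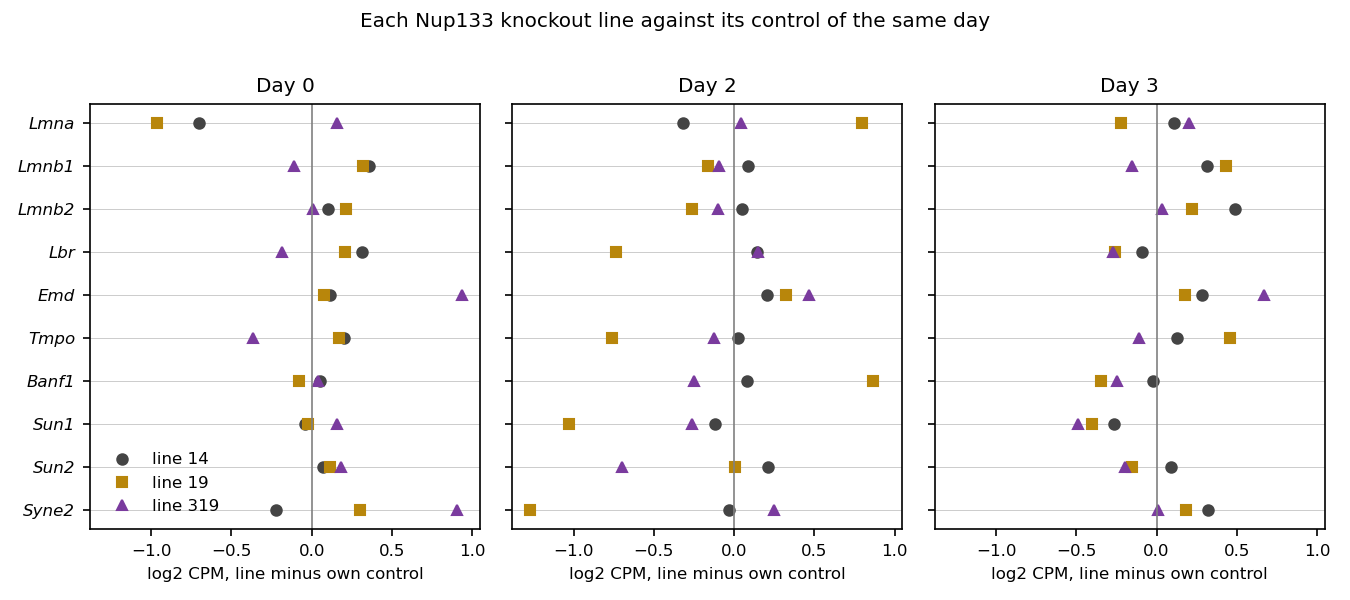
Log2 CPM of each knockout line minus that of its own control on the same day (mean of both HM1 replicates for lines 14 and 19, 1A4 for line 319), for 10 genes on 3 days. Emd lies above 0 in all 9 pairs, and Sun1 below 0 in each line at days 2 and 3. Line 19 at day 2 is farthest from 0 for Lbr, Tmpo, Banf1, Sun1 and Syne2.

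Levels of different genes were compared per length, in CPM per kilobase of the representative transcript. Banf1 and Lmnb1 held the first 2 ranks in each of the 18 samples, with means of 223 (SD 27.7) and 204 (SD 7.23) in day 0 controls (n = 3), where their samples overlapped. Lbr, Emd and Tmpo held ranks 3 to 5, with means of 71.8 (SD 1.02), 59.0 (SD 6.56) and 81.2 (SD 9.58) in the same samples. Sun1 and Lmnb2 came next, at 38.2 (SD 1.71) and 38.4 (SD 1.26), and their spreads overlapped. Lmna, Sun2 and Syne2 filled the last 3 ranks. In day 0 controls Lmna was at 22.5 (SD 7.48), Sun2 at 4.77 (SD 0.86) and Syne2 at 1.35 (SD 0.08), and in day 2 controls they were at 4.36 (SD 0.35), 3.82 (SD 0.64) and 3.52 (SD 0.34), where neighbours no longer differed beyond their spread.

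Transcript forms of Lmna, Tmpo and Syne2 were compared as percentages of counts, since a read had been counted for each annotated transcript that it overlapped. Reads in exons shared by 2 transcripts thus counted for both, so such a percentage is not the ratio of 1 form to the other. Lmna-203, with 10 exons and 574 coding residues as in lamin C, held 83.5% to 90.6% of the counts of Lmna-201, with 12 exons and 665 residues as in prelamin A, in all 18 samples. Whether the ratio of lamin C to prelamin A stayed the same cannot be read from this share. Tmpo-201, with 4 exons and 693 residues as in LAP2 alpha, which lacks a membrane segment, was set against Tmpo-202, with 9 exons and 452 residues as in the membrane-bound LAP2 beta. It held 71.4% and 68.7% of Tmpo-202 in HM1 at day 0, 72.5% in line 14 and 73.1% in line 19, but 41.8% in 1A4 and 47.5% in line 319. At day 3 the 6 samples lay between 45.1% and 52.8%. At day 0 the 4 samples of HM1 and its derivatives thus lay above 1A4 and line 319. Within each origin the knockouts lay above their own controls on that day, in 3 lines, and this difference was not tested within origins. In knockouts the share went from 60.9% (SD 1.22) at day 2 to 48.2% (SD 2.87) at day 3, without overlap (exact two-sided permutation test, p = 0.1, the smallest that 3 against 3 samples allow).

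Syne2-206, an annotated transcript of 17 exons at the 3′ end of the gene (chr12:76087760-76110926), held 50.9%, 52.7% and 41.8% of the counts of the full-length Syne2-201 in day 0 controls and 47.9%, 46.4% and 48.3% in day 0 knockouts. At day 2 it held 29.2%, 30.4% and 29.8% in controls and 36.4% and 35.6% in lines 14 and 319, with 58.8% in line 19. So the 3′ exons took a larger part of Syne2 counts at day 0 than at day 2 in each control and in lines 14 and 319. Reads in exons that the 2 transcripts share were counted for both, so their levels are not independent. Counts of Syne2-206 rose by 0.69 on the log2 scale in controls from day 0 to day 2 (SE 0.23, edgeR adjusted p = 0.0309 over 70483 transcripts), and those of Syne2-201 by 1.39 (SE 0.29, adjusted p = 0.0019). The share differed between the days with p = 0.1 in controls (exact two-sided permutation test), and both this p and that of Tmpo were 0.35 when adjusted over the 28 comparisons of transcript shares.

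**Figure D5:**
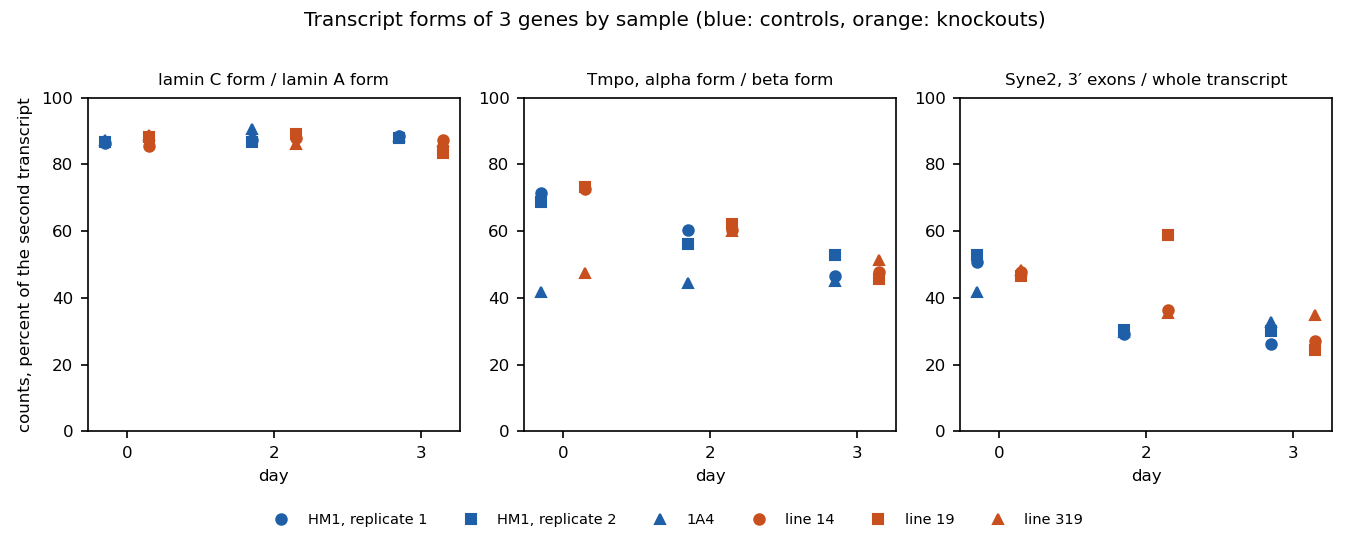
Counts of 1 transcript as a percentage of another in each of the 18 samples, by day: Lmna-203 of Lmna-201 (left), Tmpo-201 of Tmpo-202 (middle) and Syne2-206 of Syne2-201 (right). Reads in shared exons counted for both transcripts, so a percentage is not the ratio of 1 form to the other. Blue points are controls, orange points are knockouts and the shape gives the line. In the middle panel 1A4 and line 319 (triangles) lie at 41.8% and 47.5% at day 0, apart from the HM1-derived samples at 68.7% to 73.1%.

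Other genes of the nuclear envelope were read from 5 lists with 43 genes, of which 40 were tested. Between genotypes, 3, 7 and 7 of 40 had an unadjusted p under 0.05 at days 0, 2 and 3. Of all 18273 genes, 1946, 3735 and 4004 did. After adjustment 0.854%, 1.6% and 5.19% of all genes passed, and of the 40 genes 0 at day 0 and at day 2 and 1 at day 3. That gene was Vrk2, a kinase related to the BAF kinase VRK1, at 14.8 CPM (SD 1.93) in day 3 knockouts and 22.2 CPM (SD 2.37) in day 3 controls (n = 3 each, log2 difference -0.59, SE 0.16, adjusted p = 0.0492). The call lay at the threshold and was lost under 9 of the alternatives, with adjusted p up to 0.289 when HM1 replicate 1 was left out.

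Over time, 11 of the 40 passed in controls from day 0 to day 2 (5 higher, 6 lower) and 7 in knockouts (3 higher, 4 lower), where 35.2% and 35.9% of all genes did. Among the 14 LEM-domain and inner membrane genes, Nemp2 rose by 1.34 (SE 0.20, adjusted p = 0.00015) in controls and by 1.03 (SE 0.20, adjusted p = 0.0012) in knockouts, and Nrm, which encodes nurim, rose by 0.86 and 0.89. Ankle2, which promotes the return of BAF to the reforming nucleus, fell by 0.52 in knockouts (SE 0.16, adjusted p = 0.0231). It was also called lower in controls, from a mean of 114 CPM to 83.6. Of the 7 LINC and torsin genes tested, Syne3 fell by 1.16 in controls (SE 0.43, adjusted p = 0.0461), from 3.15 CPM to 1.47. From day 2 to day 3, 6 of 40 passed in controls (3 higher, 3 lower) and 10 in knockouts (4 higher, 6 lower), where 21.4% and 33.6% of all genes did. Tor3a, a torsin ATPase gene, fell by 2.16 in controls (SE 0.28, adjusted p = 5.73e-05) and by 2.19 in knockouts (SE 0.28, adjusted p = 4.22e-05), from 45.3 to 49.4 CPM in day 2 controls to 9.59 to 11.4. Lemd3, which encodes the inner membrane protein MAN1, fell by 1.16 and 1.06, while Lemd2 rose by 0.88 in controls (SE 0.18, adjusted p = 0.0026). Cbx1, an HP1 gene whose product binds the lamin B receptor, fell by 0.61 in controls (SE 0.15, adjusted p = 0.0072). It was also called lower in knockouts, from a mean of 397 CPM to 266. Leaving out either HM1 replicate ended the control calls of Syne3, Lemd3, Lemd2 and Cbx1 (adjusted p from 0.0508 to 0.26). The knockout call of Lemd3 was lost without line 14 (-0.60, adjusted p = 0.314), and that of Ankle2 without line 19 (-0.26, adjusted p = 0.102).

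The genes whose log2 CPM followed a member most closely over the 18 samples were named by Pearson's r, as a description. For Lmna these were Gss (0.97), Serpinb2 (0.96) and Tprn (0.95), and for Syne2 they were Cdc14a (0.96), Tet3 (0.95) and Syt14 (0.94). For Lmnb1 they were Kctd5, Ppat and Oxsr1 (each 0.97), and for Lmnb2 Slc11a2, Eif4g1 and Ptbp1 (each 0.96). For Sun1 they were Slc6a6 (0.97), Hic2 (0.96) and Necap1 (0.95), and for Sun2 Zfyve28 (0.93), Glis2 (0.92) and Arhgef10l (0.90). For Emd they were Pdzd11 (0.92), Rab17 and Eng, and for Lbr Klhl7 (0.89), Zfand1 and Afdn. For Tmpo they were Usp33 (0.96), Suco and Gapvd1, and for Banf1 Gm29394 (0.97), Msto1 and Pus1. Between members, the highest r was 0.84 for Lmna and Lmnb2 and the lowest was -0.87 for Lmna and Syne2. The 18 points share days, lines and the library of line 19 at day 2, so these values carry no test.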

How the data were processed

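Poly(A) RNA was prepared as TruSeq Stranded libraries, per the labels' protocols. The authors deposited 72 tables of raw counts by Ensembl transcript, 1 for each library. bcl2fastq 2.17.1.14, STAR 2.4.0k, SAMtools and HTSeq and the build mm10 are named in the submitters' processing notes. The annotation release and strand setting are not given in the sources used here. Of 110379 identifiers, 108214 matched GENCODE M21, and the others held 1.44% to 2.46% of a library's counts. Transcripts were not summed, because a read was counted for each transcript it overlapped. The 4 technical libraries of a sample differed about as counting error gives (chi-square per degree of freedom 1.01 to 1.03) and were added, which gave 16.5 M to 54.4 M gene counts per sample.

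Counts were fitted with edgeR 4.0.16 (R 4.3.3; filterByExpr, TMM, robust quasi-likelihood), with 1 coefficient for each of the 6 groups and 1 for blastocyst-derived against HM1-derived lines, over 18 samples with 11 residual degrees of freedom. The p-values were adjusted by Benjamini-Hochberg over 18273 genes, and a gene passed below 0.05. Named genes are the 10 members, Nup133, the 3 genes most like each member, and the called genes of the envelope lists (at most 5 per contrast, by adjusted p between genotypes and by size over time among genes of at least 1 CPM). The members and lists were chosen with earlier results of these data known. DESeq2 1.42.0, limma 3.58.1 and other settings were alternatives. A number follows 1 line over 3 days, so the replicate numbers pair the days. Deviations of a series from its group means correlated between days from -0.09 (line 19, days 2 and 3) to 0.40. The code was tested on simulated data.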

Additional observations from a re-analysis of the deposited data

How the results depend on the processing

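Of 896 values given for single genes under 17 alternatives, 790 kept their direction and their side of the threshold, 81 lost a call, 23 gained one and 2 reversed. The reversals concern Lbr in knockouts from day 0 to day 2, which was -0.151 with HM1-derived lines only and ran from -0.152 (without line 319) to 0.418 (without line 19) when 1 sample was left out of each day. For these the cause was not tested, beyond the low Lbr of line 19 at day 2. Outside these 896 values, others also turned without line 19 at day 2. Between genotypes at day 2 these were Syne2 (to 0.06), Banf1 (to -0.06), Lmna (to -0.149), Lbr (to 0.147) and Lmnb1 (to 0.016). Banf1 in knockouts from day 0 to day 2 turned to -0.189. The change of the genotype difference turned for Lbr and Banf1 from day 0 to day 2 and for Lmna and Sun1 from day 2 to day 3. None of these was a call. Among the 10 genes, the knockouts at day 3 had 1 call without line 19 at day 2 and 1 with day 3 fitted alone. Without the filter on low counts, controls had 0 calls from day 2 to day 3, and edgeR then tested more genes. With HM1-derived lines only, knockouts had 4 calls from day 2 to day 3, and the cause was not tested.

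Leaving out 1 replicate gave 0 to 1 calls between genotypes at day 3 and 0 at days 0 and 2. It gave 2 to 5 calls in controls from day 0 to day 2 (2 without either HM1 replicate), 0 to 3 from day 2 to day 3 (0 without either HM1 replicate), 4 to 7 in knockouts from day 0 to day 2 and 2 to 4 from day 2 to day 3 (4 without line 19 or line 319). With the cell line series as a replicate block, Lemd3 lost its call in knockouts from day 2 to day 3 (-0.94, adjusted p = 0.065), and no other call changed. Depth limits Sun2 most, with at least 186 counts in each sample.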

Other observations

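Line 319 is labelled with extra copies of chromosomes 8 and 12. Relative to 1A4, the median log2 difference of 920 genes on chromosome 8 was -0.37, -0.55 and -0.50 at days 0, 2 and 3, and that of 620 genes on chromosome 12 was 0.43, 0.49 and 0.51. None of the 10 genes lies on chromosome 8.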
